A study of Sus scrofa with 8 samples.

Results

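Osteoclasts are the multinucleated cells that resorb bone. They form when monocyte precursors, driven by CSF1 and by RANKL (TNFSF11) acting on its receptor RANK (TNFRSF11A), switch on the transcription factor NFATC1 and fuse with each other. The mature cell pumps acid onto the bone surface through a vacuolar proton pump (V-ATPase) and releases the protease cathepsin K, which cuts collagen. The olfactory epithelium (OE) itself holds no bone, but it lies on the thin bones of the nasal turbinates and septum. Here 10 osteoclast genes were followed in the OE of sows: TNFRSF11A and CALCR (receptors), NFATC1 (transcription factor), DCSTAMP and OCSTAMP (cell fusion), ACP5, CTSK and MMP9 (secreted enzymes), and ATP6V0D2 and TCIRG1 (subunits of the proton pump). They were taken by gene name, and all 10 were found among the 22516 genes of the files.

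The animals were 4 crossbred sows (Landrace sire, Rongchang dam), 8 months old and in estrus. The nasal cavity of 2 sows was sprayed with Boarmate, whose main component is the boar pheromone androstenone, and the tissue was taken after 30 min (androstenone treatment group). The other 2 sows received no solution (control group), so that the spray itself had no carrier control. The OE of the left and right side gave separate RNA-seq libraries, 4 per group. The labels and methods do not tie libraries to sows. The libraries were therefore treated as replicates although each group held 2 animals, and p-values measure the spread between libraries only.

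Levels are given in TPM, the transcript level scaled for transcript length and library total, and the groups were compared on the estimated counts with edgeR. The libraries held 81580146 to 100685566 counts, except control 1 with 4178330, where a count of 0 allows up to 0.718 CPM (counts scaled to the library total, here from 3 counts and for counting error only) against at most 0.0368 CPM elsewhere. The study lists a number of clean reads for control 1 within the range of its other samples. The low total is thus that of the deposited counts, and its reason was not tested. Control 4 stood apart in composition: its 10 most abundant genes took 29.4% of the counts, against 6.57% to 9.02% in the other 7 libraries. Its results are shown apart because it had been singled out with earlier results of these data known. Of 10 olfactory sensory neuron genes, RTP2 was listed at 0 TPM in every library, and RTP1, LHX2 and GNG13 were below 0.5 TPM in all 8. The others were measured at higher levels, such as STOML3 at 34.9 to 190 TPM, ANO2 at 3.18 to 50.4 TPM and ADCY3 at 6.25 to 15.0 TPM. CNGA2, the channel subunit of these neurons, ranged from 0.279 TPM in control 4 to 5.01 TPM in androstenone 2. In bulk tissue, fewer cells of a type and less RNA per cell cannot be told apart.

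All 10 osteoclast genes were highest in control 4. Together they held 0.761% of the transcripts of control 4 (7610 TPM), against 0.0272% to 0.0959% (272 to 959 TPM) in the other 7 libraries. Control 4 was the top library for 12.5% of all genes tested. For 7 of the 10 genes, all but TCIRG1, NFATC1 and OCSTAMP, control 4 was at least 4 times as high as the next library, which held for 1.36% of all genes tested. Control 4 had been singled out with earlier results of these data known, so its levels are a description.

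**Figure D1:**
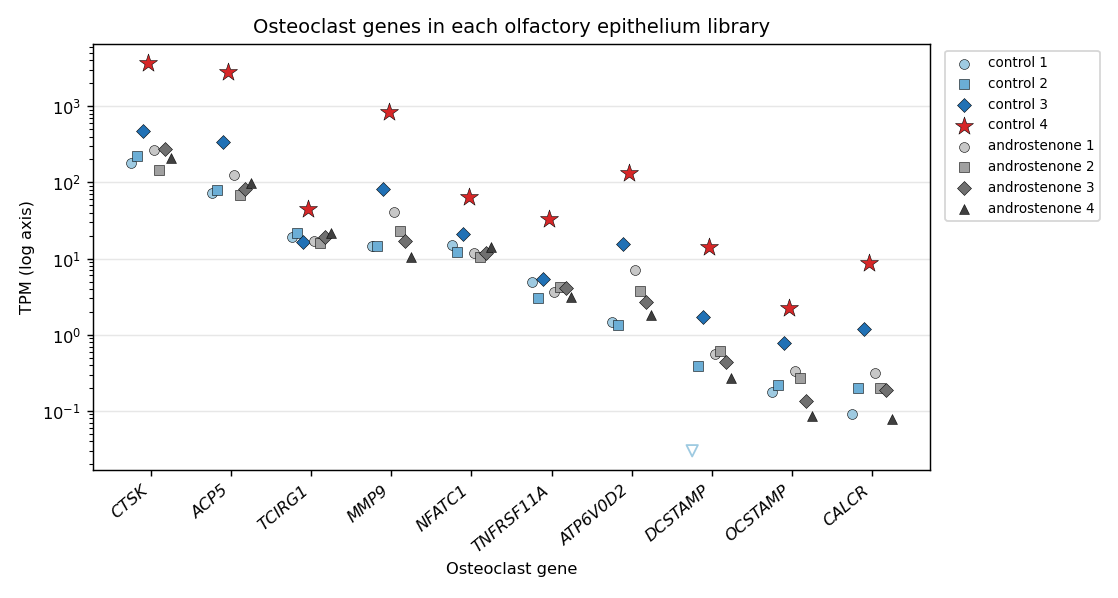
TPM (log axis) of the 10 osteoclast genes in each of the 8 libraries, ordered by their median in the other 7 libraries, with control 4 as a red star. Control 4 is the highest library for every gene and control 3 (dark blue diamond) the second for all but TCIRG1, while the open triangle marks DCSTAMP in control 1, which was listed at 0 and has no place on a log axis.

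Among the receptors, RANK receives the signal that drives differentiation. TNFRSF11A (RANK, ENSSSCG00000004898, chromosome 1 of Sscrofa11.1 from 159128039 to 159187476) was at 4.92, 3.02, 5.43 and 32.6 TPM in control 1 to 4 and at 3.65, 4.28, 4.13 and 3.15 TPM in androstenone 1 to 4. Control 4 was 6.01-fold above the next library, and the other 7 libraries lay within 1.80-fold of each other, with the androstenone libraries inside the range of control 1 to 3. CALCR, the receptor of calcitonin, a hormone that restrains resorption (ENSSSCG00000015320, chromosome 9 from 73279874 to 73403516), was at 0.0912, 0.2, 1.19 and 8.87 TPM in control 1 to 4 and at 0.315, 0.202, 0.188 and 0.0794 TPM in androstenone 1 to 4. Here control 3 also stood above the rest, 6.14-fold over the median of the remaining 6 libraries. The value of control 1 rests on 1 count, with a 95% exact Poisson interval of 0.00606 to 1.33 CPM.

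NFATC1, the transcription factor that RANK signalling induces (ENSSSCG00000004856, chromosome 1 from 145940099 to 146002897), is also used by lymphocytes and endothelial cells. It was at 15.2, 12.2, 21.1 and 64.8 TPM in control 1 to 4 and at 11.8, 10.6, 11.7 and 14.3 TPM in androstenone 1 to 4. Control 4 was 3.07-fold above control 3, the next library, and 5.31-fold above the median of the other 7.

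DCSTAMP and OCSTAMP are the membrane proteins needed for the fusion of precursors. DCSTAMP (ENSSSCG00000006043, chromosome 4 from 32912320 to 32928323) was listed at 0 TPM in control 1 and was at 0.389, 1.71 and 14.2 TPM in control 2 to 4 and 0.552, 0.612, 0.437 and 0.272 TPM in androstenone 1 to 4. OCSTAMP (ENSSSCG00000007448, chromosome 17 from 48703937 to 48711690) was the gene with the fewest counts, 438 over all libraries. Its levels were 0.179, 0.221, 0.774 and 2.25 TPM in control 1 to 4 and 0.333, 0.272, 0.134 and 0.086 TPM in androstenone 1 to 4. For both fusion genes control 3 was second, and the rest lay below 1 TPM.

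Of the secreted enzymes, CTSK and ACP5 were the most abundant of the 10 genes in every library. CTSK, cathepsin K (ENSSSCG00000052889, chromosome 4 from 98389459 to 98404969), was at 177, 224, 476 and 3651 TPM in control 1 to 4 and at 265, 145, 276 and 207 TPM in androstenone 1 to 4. ACP5, the tartrate-resistant acid phosphatase used as the histological stain for osteoclasts (ENSSSCG00000032282, chromosome 2 from 70206159 to 70209855), was at 71.9, 79.7, 338 and 2806 TPM in control 1 to 4 and at 123, 67.9, 81.2 and 99.5 TPM in androstenone 1 to 4. Control 4 exceeded the next library 7.66-fold for CTSK and 8.31-fold for ACP5. In the other 7 libraries the enzymes were far from 0, and CTSK is also made by fibroblasts and ACP5 by macrophages. CTSK stood at 1.30 and 1.41 times the TPM of ACP5 in control 4 and control 3, against 2.08 to 3.40 times in the other 6 libraries.

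MMP9, the gelatinase of osteoclasts and neutrophils (ENSSSCG00000007436, chromosome 17 from 48179690 to 48186782), had the widest gap to the next library of the 10 genes, 10.3-fold. It was at 14.8, 14.4, 82.3 and 851 TPM in control 1 to 4 and at 41.0, 23.0, 17.0 and 10.5 TPM in androstenone 1 to 4. Genes of neutrophils and their precursors did not follow it. Control 4 was the top library for 0 of the 7 measured ones, and S100A8 was at 8.51 TPM in control 4 against 6.77 to 169 TPM elsewhere. Their sum, 803 TPM in control 4 and 414 to 3030 TPM elsewhere, was mostly LTF, lactoferrin, which glands also secrete, with 781 TPM in control 4. MPO, the granule enzyme of neutrophil precursors, was listed at 0 TPM in control 4 and at no more than 0.174 TPM elsewhere.

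The proton pump is shared by all cells, and osteoclasts are known for particular isoforms of its d and a subunits. ATP6V0D2, the d2 subunit (ENSSSCG00000006138, chromosome 4 from 50694188 to 50749373), was at 1.49, 1.36, 15.4 and 134 TPM in control 1 to 4 and at 7.04, 3.77, 2.71 and 1.81 TPM in androstenone 1 to 4. Its widely used counterpart ATP6V0D1 stayed between 53.6 and 64.2 TPM in all 8 libraries. ATP6V0D2 thus made up 67.6% of the d subunit transcripts of control 4, 21.3% of those of control 3 and 2.39% to 11.6% of those of the other 6 libraries. TCIRG1, the a3 subunit (ENSSSCG00000012890, chromosome 2 from 4844627 to 4860562), was the flattest of the 10 genes, at 18.9, 21.9, 16.7 and 44.5 TPM in control 1 to 4 and 16.9, 15.8, 19.0 and 21.7 TPM in androstenone 1 to 4. It made up 58.4% of the a subunit transcripts of control 4 and 20.0% to 38.1% of those of the other 7 libraries, with control 3 the lowest.

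**Figure D2:**
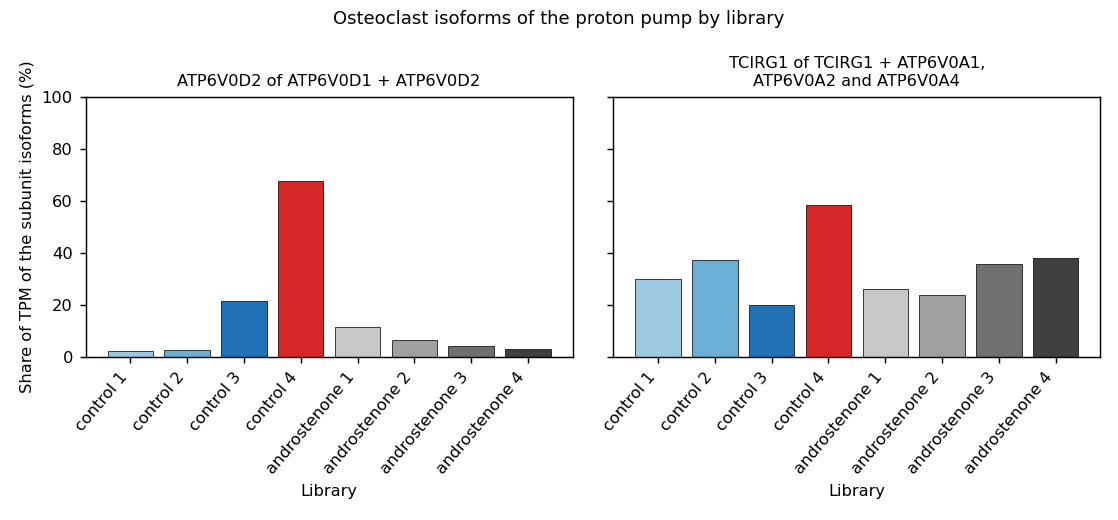
Share of the d subunit transcripts that were ATP6V0D2 (left) and of the a subunit transcripts that were TCIRG1 (right), in percent of the summed TPM of the isoforms, in each library. ATP6V0D2 reaches 67.6% in control 4 and 21.3% in control 3, and TCIRG1 reaches 58.4% in control 4.

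With control 4 left out, control 3 was the highest library for 9 of the 10 genes, all but TCIRG1. Control 3 was the top one of these 7 libraries for 23.3% of all genes tested. Its excess over the median of the remaining 6 was 6.79-fold for ATP6V0D2, 5.17-fold for MMP9, 4.20-fold for ACP5 and 4.14-fold for DCSTAMP, but 1.40-fold for TNFRSF11A and 0.883-fold for TCIRG1. Androstenone 1 came next after control 3 for ATP6V0D2, MMP9 and ACP5, at 7.04, 41.0 and 123 TPM. For ATP6V0D2 the control group thus held the 2 highest values and, with 1.36 TPM in control 2, the lowest.

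In the comparison of the androstenone treatment group with the control group, the cutoff was that of the study, an unadjusted p below 0.05 and a log2 fold change of 1 or more in either direction. With all 8 libraries, 7 of the 10 osteoclast genes passed as downregulated in edgeR's quasi-likelihood test (ACP5, CTSK, MMP9, OCSTAMP, DCSTAMP, CALCR and ATP6V0D2), and 0 as upregulated. Of all 21318 genes tested, 4.38% passed as downregulated and 2.04% as upregulated. The log2 fold change was -3.84 for CALCR (standard error 1.35, adjusted p = 0.416 by Benjamini-Hochberg), -3.50 for MMP9 (1.41) and -3.42 for ATP6V0D2 (1.46). It was -3.26 for ACP5 (1.24) and -2.44 for CTSK (1.04). The median over the 10 genes was -2.85, against -0.021 over all genes tested. TNFRSF11A, at -1.67 (unadjusted p = 0.068 in edgeR's quasi-likelihood test), NFATC1, at -1.25 (0.0629), and TCIRG1, at -0.45 (0.278), did not pass.

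The calls depended on control 4 and on the test. With all libraries, limma voom passed 0 of the 10 genes, and the quasi-likelihood test passed 0 when androstenone 4 was left out, 1 without androstenone 2 or androstenone 3 and 4 without androstenone 1. Of all genes, 2.82% passed as downregulated with limma voom, and 2.66%, 2.75%, 3.14% and 3.87% without androstenone 1, 2, 3 and 4. The log2 fold changes of the 10 genes ran from -3.84 to -0.45 in the quasi-likelihood test with all libraries. Without androstenone 1, 2, 3 and 4 they ran from -4.20 to -0.43, -3.87 to -0.40, -3.82 to -0.47 and -3.57 to -0.52. Calls were thus lost there although all 10 genes stayed below 0 over similar ranges. Without control 4, 0 of the 10 genes passed in edgeR's quasi-likelihood test, 0 had an unadjusted p below 0.05, and edgeR's exact test, the likelihood ratio test, DESeq2 and limma voom also passed 0. Of the 21258 genes then tested, 3.71% still passed as downregulated and 1.24% as upregulated. The log2 fold change went to -1.28 for CALCR (standard error 0.81), -0.52 for MMP9 (0.74), -0.51 for ATP6V0D2 (0.92), -0.64 for ACP5 (0.57) and -0.20 for CTSK (0.40), and the median over the 10 genes to -0.51. TCIRG1 changed sign, to 0.13 (standard error 0.16). These standard errors leave room for changes in either direction, so the comparison without control 4 does not show that the groups were alike. When control 3 was left out as well, 9 of the 10 genes lay above 0, all but NFATC1, and ATP6V0D2 passed the cutoff as upregulated (log2 fold change 1.63, standard error 0.63), as did 2.84% of all genes tested. That fit left 2 control libraries, and control 1 held 9 counts of ATP6V0D2.

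**Figure D3:**
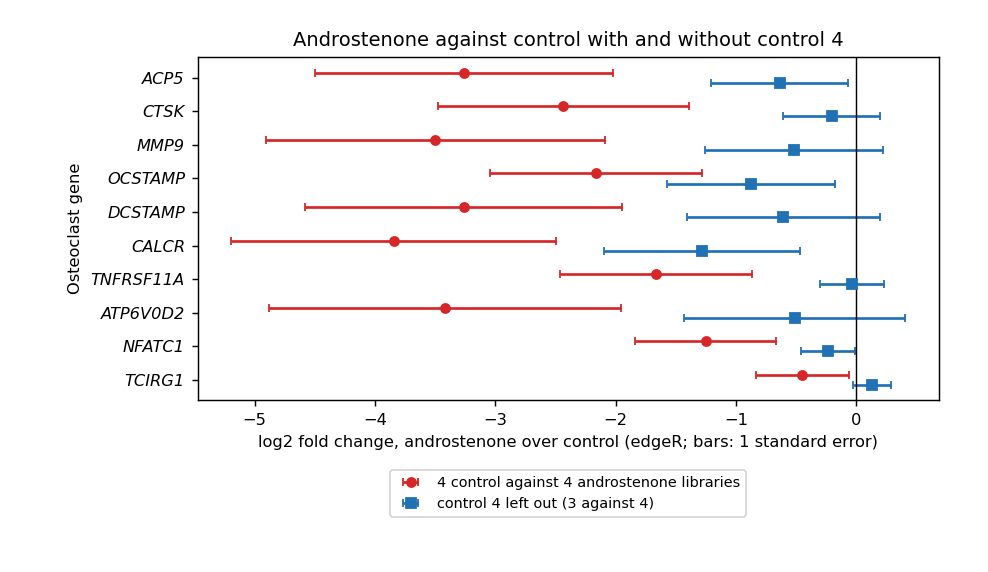
Log2 fold change of the 10 osteoclast genes, androstenone over control, from edgeR's quasi-likelihood fit with all 8 libraries (red) and without control 4 (blue), with bars of 1 standard error. With all libraries every gene lies below 0, and without control 4 each gene moves toward 0, TCIRG1 past it to 0.13.

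The groups overlapped for each of the 10 genes, with and without control 4. Every androstenone library lay below every control library for 0 of the 10, against 2.64% of all genes tested with 8 libraries and 5.12% without control 4. In CPM, the control group was at 762 ± 1283 and the androstenone treatment group at 79.7 ± 22.6 for ACP5 (SD, n = 4 libraries each, exact permutation test, p = 0.4). For CTSK they were at 1336 ± 2112 and 247 ± 71.3 CPM (SD, n = 4 each, exact permutation test, p = 0.343). In CPM the SD of the control group exceeded its mean for 9 of the 10 genes, all but TCIRG1. Over the 10 genes the two-sided exact permutation p ranged from 0.286 to 0.829 with all libraries, where 0.0286 is the smallest possible, and from 0.4 to 0.857 without control 4, where it is 0.0571.

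After Benjamini-Hochberg adjustment over all genes, 0 of the 10 passed in edgeR's quasi-likelihood test, with adjusted p between 0.416 and 0.653. That test passed 0 genes of all, although 2415 had an unadjusted p below 0.05. Adjusted p-values below 0.05 were given to 157 genes by edgeR's exact test, 200 by the likelihood ratio test, 679 by DESeq2 and 0 by limma voom. Among the osteoclast genes, CALCR alone was among them, in DESeq2 (adjusted p = 0.0379), and without control 4 its adjusted p in DESeq2 was 0.63. DESeq2 was run with its filter for outlying counts switched off, so genes with an extreme count in control 4 were kept.

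The remaining genes of the pathway were taken from 2 lists. Of 18 genes of osteoclast signalling and regulation, control 4 was the top library for 13, against 12.5% of all genes tested. TNFSF11, the ligand RANKL, was at 24.2 TPM in control 4 and at 0.645 to 2.44 TPM in the other 7 libraries, a gap of 9.92-fold to the next. SIGLEC15, a sialic acid receptor of the osteoclast lineage, was at 80.4 TPM in control 4, 9.67 TPM in control 3 and 2.21 to 4.56 TPM elsewhere. ITGB3 and ITGAV, the chains of the integrin by which osteoclasts hold on to bone, were at 102 and 104 TPM in control 4 and reached 16.0 and 23.4 TPM in the next library. Some genes of the list are also used by macrophages. CSF1R, the CSF1 receptor, was at 120 TPM in control 4 and 10.6 to 50.5 TPM elsewhere, a gap of 2.38-fold to the next library. TYROBP, the adaptor of activating receptors, was at 156 TPM in control 4 and 48.5 to 149 TPM elsewhere. SPI1, the transcription factor PU.1, was at 64.5 TPM in control 4, below androstenone 4 with 70.7 TPM.

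Of these 18 genes, 6 passed the cutoff as downregulated with all libraries (TNFRSF11B, FOS, SIGLEC15, TNFSF11, ITGB3 and OSCAR), and 0 as upregulated. The shares of all genes tested were 4.38% and 2.04%. The median log2 fold change of the 18 genes was -0.50 with all libraries and 0.00 without control 4, against -0.021 and 0.0025 over all genes tested. Without control 4 the downregulated ones were TNFRSF11B and FOS. TNFRSF11B, or osteoprotegerin, is the decoy receptor that keeps RANKL from RANK. It was at 5.29, 4.47, 1.40 and 7.82 TPM in control 1 to 4 and at 0.522, 0.308, 0.386 and 1.68 TPM in androstenone 1 to 4. Androstenone 4 lay above control 3, so the groups overlapped. The log2 fold change was -2.69 (standard error 0.73) with all libraries and -2.15 (0.70) without control 4. Its adjusted p was 0.393 and 0.457 in edgeR's quasi-likelihood test. FOS, a subunit of the transcription factor AP-1 that is also an early response gene of many cells, was at 20.7 to 67.9 TPM in the control libraries and 14.8 to 25.2 TPM in the androstenone libraries, a log2 fold change of -1.17 (standard error 0.34) with all libraries and -1.14 (0.38) without control 4. For FOS, too, the groups overlapped, with control 1 below androstenone 2.

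Of 12 genes of acid secretion and resorption, control 4 was the top library for 11, with ACP2 the exception, against 12.5% of all genes tested. CA2, the carbonic anhydrase that supplies protons, was at 19.6 TPM in control 4 and 1.16 to 2.80 TPM elsewhere. SLC9B2, a sodium-proton exchanger, was at 76.1 TPM in control 4, 9.14 TPM in control 3 and 2.02 to 4.70 TPM elsewhere, and was the 1 gene of the list past the cutoff with all libraries (log2 fold change -2.97, standard error 1.08). The chloride channel CLCN7 and its partner OSTM1 stood less apart in control 4, at 1.51-fold and 1.52-fold the next library. Without control 4, 0 of the 12 passed in edgeR's quasi-likelihood test, and the median log2 fold change of the list was -0.62 with all libraries and 0.03 without control 4.

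Of 18 further V-ATPase subunits measured, 0 passed the cutoff in either comparison. Control 4 was the top library for 8 of them, against 12.5% of all genes tested. Their median log2 fold change was -0.18 with all libraries and 0.20 without control 4. The summed level of these subunits was 1741 TPM in control 4 and 862 to 1690 TPM elsewhere, with control 3 second. Among isoforms, ATP6V1B2 was at 162 TPM in control 4 and at most 68.1 TPM elsewhere, while ATP6V1B1, the isoform of kidney and ionocytes, was at 29.8 TPM in control 4 and 39.7 to 161 TPM elsewhere. ATP6V0A4 and ATP6V1C2 were near their lowest in control 4, at 7.66 and 24.1 TPM against up to 35.9 and 124 TPM in control 3. ATP6V0C, ATP6V0E1 and ATP6V1E1 had no match by name and were not analysed here.

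Other cell types moved with the osteoclast genes to different extents, and their part in the results was not tested. All 11 genes of osteoblasts and bone matrix were highest in control 4, with a sum of 97283 TPM against 878 to 8035 TPM elsewhere. BGLAP (osteocalcin) was at 9371 TPM in control 4 and 42.3 to 210 TPM elsewhere. DMP1, an osteocyte gene, was at 832 TPM in control 4 and 5.37 to 22.0 TPM elsewhere. With all libraries 11 of the 11 passed the cutoff as downregulated, and without control 4, SP7 did so alone. The median log2 fold change went from -4.35 to -0.58. The second library for this sum was control 2, mostly through the collagen genes COL1A1 and COL1A2 at 3686 and 3774 TPM. SP7, the transcription factor of osteoblasts, was also higher in control 2 than in control 3, at 48.4 and 4.00 TPM. BGLAP, IBSP, SPP1, DMP1 and PHEX were instead higher in control 3 than in control 2, as 9 of the 10 osteoclast genes were. The likeness ends there, as control 3 was the highest of the other 7 libraries for 1 of the 11 genes, SPP1. Androstenone 2 lay above it for BGLAP, IBSP, DMP1 and PHEX, at 210, 210, 22.0 and 0.525 TPM. Control 3 was at 168, 143, 21.5 and 0.519 TPM.

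The macrophage and monocyte genes did not stand apart in control 4 by their sum. The sum over 12 genes was 875 TPM in control 4 and 429 to 1178 TPM elsewhere, with control 3 the lowest. Control 4 was the top library for 3 of the 12 (CD68, MRC1 and MSR1), against 12.5% of all genes tested. CD68, a lysosomal protein that osteoclasts also carry, was at 281 TPM in control 4, 81.2 TPM in control 3 and 41.0 to 78.5 TPM elsewhere. C1QA, of the complement of tissue macrophages, was at 97.5 TPM in control 4, inside its range of 39.6 to 222 TPM elsewhere. LYZ passed the cutoff as upregulated in both comparisons, and CD163 without control 4, with a list median of 0.40 and 0.64 on the log2 scale. LYZ did not follow the list as a whole. It was highest in androstenone 2, at 319 TPM, where the sum over the 12 genes was 664 TPM against 1178 TPM in androstenone 4. Of the 7 neutrophil genes, S100A8, a calcium-binding protein of neutrophils, and CSF3R, the G-CSF receptor, passed as upregulated in both comparisons. The log2 fold change of S100A8 was 2.87 (standard error 0.59) with all libraries and 2.70 (0.68) without control 4, and the list median was 0.42 and 0.39. Erythroid genes, a sign of blood or marrow, summed to 213 TPM in control 4 and 19.4 to 102 TPM elsewhere. HBB made up 205 TPM of the sum in control 4, which was the top library for 4 of the 6 genes. SLC4A1 alone passed as downregulated in both comparisons, with a list median of -0.90 and -0.30. SLC4A1 was low throughout and did not follow the sum, at 0.0785 TPM in control 4 and 0.0467 to 0.27 TPM elsewhere, highest in control 1. Of the 6 cartilage genes, 4 were highest in control 4, with CHAD at 831 TPM against 5.88 to 48.6 TPM elsewhere and COL2A1 at 0.815 TPM against 0.332 to 1.78 TPM. With all libraries 4 cartilage genes passed as downregulated (COL9A1, ACAN, CHAD and COL11A1), and without control 4 the first 3 of these, with a list median of -3.37 and -1.47. Respiratory ciliated cell genes were lowest in control 4, at 363 TPM in sum, and highest in control 3, at 2173 TPM. Of these and of the olfactory sensory neuron genes, 0 passed the cutoff in either comparison by edgeR's quasi-likelihood test, and 0 had an unadjusted p below 0.05. The median log2 fold change was 0.32 and 0.09 for the ciliated cell genes and -0.17 and 0.04 for the olfactory sensory neuron genes, with and without control 4.

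**Figure D4:**
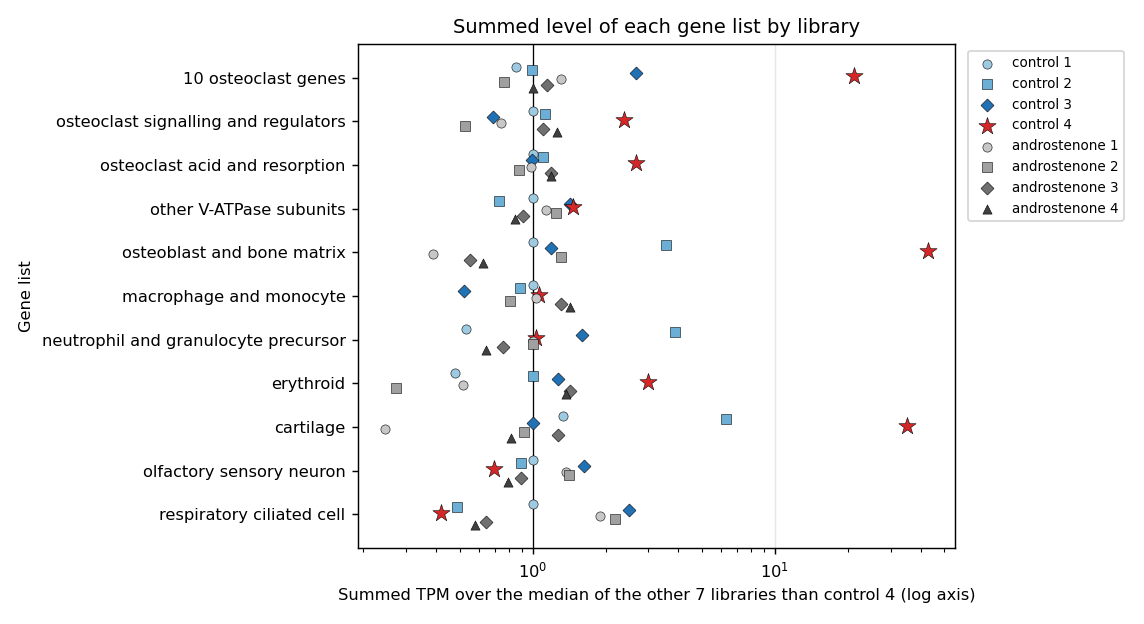
Summed TPM of each gene list in each library, divided by the median of the 7 libraries other than control 4 (log axis), with control 4 as a red star. Control 4 lies at 21.3 for the osteoclast genes, 43.0 for the osteoblast list and 35.1 for the cartilage list. It is also the highest library, by less, for the osteoclast signalling, acid and resorption, other V-ATPase and erythroid lists, at 2.38, 2.68, 1.46 and 2.99. The macrophage list holds it near 1.06 and the ciliated cell list at 0.419.

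Of the genes with a symbol and at least 1 CPM on average, the 10 whose profile over the 8 libraries came closest to that of the osteoclast genes were SIGLEC15, ITGB3, OSCAR, RUFY4, SLC9B2, TPRG1, SLC37A2, SPP1, LIPC and SLC8A3. The likeness was the root mean square difference, over the 8 libraries, between the centred log2 CPM of a gene and the median of 9 of the 10 genes, as OCSTAMP lay below 1 CPM. It was 0.26 for SIGLEC15, 0.27 for ITGB3 and 0.39 for OSCAR, an immunoglobulin-like receptor of osteoclasts, and 0.61 for SLC8A3, the tenth. Against the same profile ACP5 lay at 0.28, CTSK at 0.40 and TCIRG1 at 1.32. The average of 1 CPM was taken over all 8 libraries, control 4 included. CALCR and DCSTAMP reached it only through control 4, at 25.9 and 18.1 CPM there against at most 2.74 and 1.73 CPM elsewhere. SIGLEC15, ITGB3, OSCAR and SLC9B2 also stand in the pathway lists above, and SPP1, osteopontin, in that of osteoblasts. SPP1 was at 11085 TPM in control 4, 702 TPM in control 3 and 136 to 490 TPM elsewhere. RUFY4 was at 9.27 TPM in control 4, 1.04 TPM in control 3 and 0.301 to 0.781 TPM elsewhere. As the 10 genes were chosen by their profile, the lead of control 4 and control 3 in them follows from the choice and is no separate result.

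**Figure D5:**
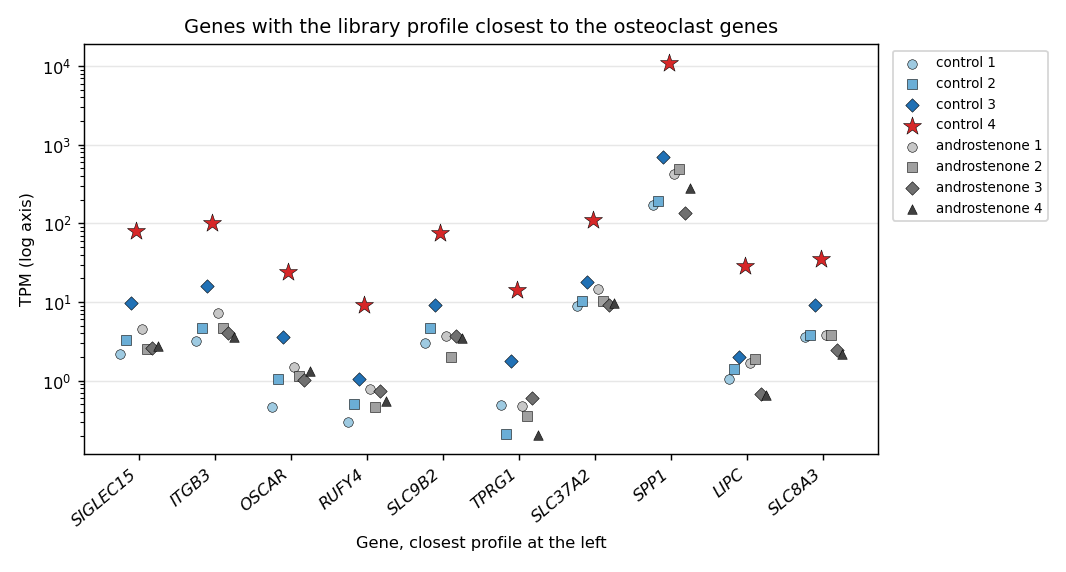
TPM (log axis) in each library of the 10 genes whose library profile was closest to that of the osteoclast genes, the closest at the left. Control 4 (red star) is the highest and control 3 (dark blue diamond) the second library for each of the 10. The values go from SIGLEC15 at 80.4 and 9.67 TPM to SLC8A3 at 35.1 and 9.17 TPM. The genes were chosen for this likeness, so the shared order of libraries follows from the choice.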

How the data were processed

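RNA-seq of the OE was made by the authors with the NEBNext Ultra kit from RNA with a RIN of at least 8. Per the labels and methods, reads went through fastp 0.23.1 and then kallisto 0.48.0 against the Ensembl transcripts of Sscrofa11.1. For every gene in each library the authors deposited one unscaled estimated count and one TPM value that adjusts for transcript length and depth. The step from transcripts to genes is not described, and reads shared by related genes are split by estimate.

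Symbols came from a name table that matched 15527 of 22516 identifiers, and coordinates from the RefSeq table of Sscrofa11.1. Counts were rounded, and genes with at least 1 count were tested with TMM and edgeR 4.0.16 (quasi-likelihood test, condition only) in R 4.3.3. Standard errors are the log2 fold change over the root of the F statistic. CPM use TMM-scaled totals, except limits and intervals, which use library totals. DESeq2 1.42.0 and limma 3.58.1 served as alternatives, and permutation tests ran in scipy 1.17.1. DESeq2 ran without independent filtering and without filtering or replacing outlying counts by Cook's distance. The main fit, edgeR's exact and likelihood ratio tests, DESeq2 and limma voom were checked on simulated counts. These had the same dispersion for every gene and no outlying library, so the check does not cover a library like control 4. The genes, the lists and control 4 were chosen with earlier results of these data known. Named genes are the 10 members, list genes past the cutoff or most abundant, and the 10 closest profiles. Other genes of the lists are named after their values were seen, to show where isoforms and cell types differ.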

Additional observations from a re-analysis of the deposited data

Results flagged for a closer look

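For 8 of the 10 osteoclast genes, control 4 lay so far above the other 3 control libraries in TPM that it stood out by Dixon's ratio, the gap to the nearest library over the whole range of the group. The ratio was 0.903 for ACP5, 0.914 for CTSK, 0.919 for MMP9, 0.879 for DCSTAMP, 0.875 for CALCR, 0.918 for TNFRSF11A, 0.894 for ATP6V0D2 and 0.831 for NFATC1. It was 0.712 for OCSTAMP and 0.814 for TCIRG1, which did not reach the limit for 4 libraries. In the androstenone treatment group 0 of the 10 genes had such a library. The ratio marks about 1 in 20 groups by chance when no library was chosen beforehand. The share of all genes tested for which control 4 stood out in this way was not counted. Control 4 was singled out with its levels known and the 8 genes share this library, so the ratios describe the size of the gap and add no support to it.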

How the results depend on the processing

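The number of osteoclast genes past the cutoff with all libraries, 7, stayed within 7 to 9 under edgeR's exact and likelihood ratio tests, DESeq2, RLE, library size only, both count filters and counts not rounded. It was 0 with limma voom, log2(TPM + 0.1) and log2(TPM + 1), and 0 to 9 with 1 library left out (0 without control 4 or androstenone 4, 1 without androstenone 2 or androstenone 3, 4 without androstenone 1). Of all 21318 genes tested, 934 passed as downregulated in the main fit. The exact test, the likelihood ratio test and DESeq2, each with 9 osteoclast genes, passed 1082, 1399 and 1140. RLE passed 979 and library size only 799. The count filters passed 752 of 18347 and 876 of 20015, and counts not rounded 935 of 21135. Without control 1, 2 and 3, 901 of 21307, 658 of 21134 and 1463 of 21223 passed. Without control 4, the 0 became 1 when control 3 was also left out: ATP6V0D2 then passed with its sign turned, a log2 fold change of 1.63 (range -1.01 to 1.63 over the libraries left out). Leaving out 1 further library otherwise kept it at 0, a range of 0 to 1. The cause of these moves was not tested. All 20 alternatives kept the sign of each gene with all libraries, except TCIRG1 without control 4. Without control 4, NFATC1 was below 0 in all 19 alternatives and TCIRG1 in 2 of 19. Scaling by library size only moved the median over all genes without control 4 from 0.0025 to -0.103.

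Of all genes, 1368 passed with all libraries, 727 and 321 with log2(TPM + 0.1) and log2(TPM + 1), and 867 to 2414 with 1 library left out (2414 without control 3, 867 without androstenone 1). Of the 106 matched genes of the lists, the number that passed, 26 in the main comparison, was 10 with limma voom and log2(TPM + 0.1), 8 with log2(TPM + 1) and 11 to 28 with 1 library left out. Without control 4, 1052 of all genes and 11 list genes passed, 293 and 7 with log2(TPM + 1), and 748 to 2055 and 4 to 14 with 1 further library left out.

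With the replicate block, 0 osteoclast genes, 583 of all genes and 7 list genes passed, and without control 4, 514 and 6. The groups were different sows, so libraries of equal number cannot share an animal and the block stands for no sow. As a description, the deviations of same-numbered libraries correlated between -0.67 and 0.20. Of the 4 control libraries, 0 correlated best with their own number. The median excess of control 4 over the other 7 libraries, 4.52 on the log2 scale in TPM, was 4.13 to 4.77 in CPM and against the other 3 control libraries. The low count total of control 1 limits CALCR, DCSTAMP and OCSTAMP there, with at most 1 count of each.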
